A study of Mus musculus with 12 samples.

Results

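Cytosolic ribosomes build the proteins that nuclear genes encode, and the proteins of their subunits are encoded by genes scattered over the genome, some with paralogs. The genes of the cytosolic ribosomal proteins were taken as the protein-coding rows whose symbol has the form Rpl or Rps with a number and at most one of the endings a, x, l, l1 and al, together with Rplp0, Rplp1, Rplp2 and Rpsa. Of the 22915 genes in the table, 81 rows fitted this rule and 79 reached a normalized count of 10 in 3 or more libraries, 48 of them for the large subunit and its stalk and 31 for the small subunit. The remaining rows, Rpl24 and Rpl36al, had normalized counts of at most 5 and at most 7 in any library and were not tested. In their annotated transcripts, 80.9% and 23.3% of 75-base windows also occurred in another gene. Another gene on the same strand overlapped 47.0% and 24.5% of their exonic bases. The authors left out reads that aligned to several regions or lay on several genes. Low values therefore need not mean low expression, and the part of these losses was not tested.

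Adult primary cardiomyocytes of male C57/Bl6 mice, 12 weeks old, were cultured in normoxia for 24 h with sterile PBS, with murine leukemia inhibitory factor (mLIF), with murine oncostatin M (mOSM) or with human-like oncostatin M (hlOSM), and 3 libraries of total RNA were sequenced per condition, 12 in all. The mLIF protein signals through the LIF receptor (LIFR), mOSM through the OSM receptor (OSMR), and hlOSM, a murine OSM that carries the AB loop of the human protein, through both. The labels give 25 ng/mL for every protein, while the study's methods give a lower dose. The study's methods mention biological replicates without saying what they were, and the labels do not tie libraries to preparations, so that p-values measure the spread between libraries, part of which may be technical.

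In most cells the messenger RNAs of ribosomal proteins begin with a pyrimidine tract (the 5′ terminal oligopyrimidine, or TOP, motif), through which mTORC1 and the RNA-binding protein Larp1 set their translation. They are known as abundant, short transcripts that are held at similar levels and have given rise to many processed pseudogenes. Striated muscle has its own paralog of the large-subunit protein uL3, encoded by Rpl3l, beside the general gene Rpl3.

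Because the comparison of Rpl3 and Rpl3l rests on reads of at most 75 bases, stretches of that length were compared. Only stretches inside a single exon of both genes and without an alignment gap were considered. The stretch of 75 coding bases over which the genes are most alike under these limits is shown for each, with differing bases in capitals. It lies in exon 2 of both (coding bases 85 to 159, mm10), at chr15:80082427-80082501 on the minus strand for Rpl3 and at chr17:24728398-24728472 on the plus strand for Rpl3l.
Rpl3: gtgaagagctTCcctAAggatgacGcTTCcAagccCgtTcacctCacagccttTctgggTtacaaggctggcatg
Rpl3l: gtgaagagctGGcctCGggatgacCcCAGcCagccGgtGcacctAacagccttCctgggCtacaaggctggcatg
Over this stretch 61 bases were identical and 14 differed. Along the whole coding sequences, of 1209 and 1221 bases, identity was 73.04% and the longest identical run was 22 bases, and no window of 75 bases of one annotated transcript occurred in the other.

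The second pair that the results turn on is Rpl22 and Rpl22l1, which encode alternative forms of the large-subunit protein eL22. Their most similar stretch under the same limits lies in exon 4 of both, at chr4:152332280-152332354 for Rpl22 and at chr3:28807187-28807261 for Rpl22l1. Both are on the plus strand of mm10, and differing bases are again in capitals.
Rpl22: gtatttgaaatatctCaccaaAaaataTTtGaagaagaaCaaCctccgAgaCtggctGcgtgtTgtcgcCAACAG
Rpl22l1: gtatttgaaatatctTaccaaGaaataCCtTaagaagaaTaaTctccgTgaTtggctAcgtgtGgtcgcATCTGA
Here 58 bases were identical and 17 differed, and coding identity was 66.93%.

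Promoters are shown for Rpl3l, the single member called lowered, and for 3 of the members raised with both mOSM and hlOSM. They are given as the 100 bases before the RefSeq transcript start (GRCm38.p6, 5′ to 3′ on the gene's strand). The windows of Rpl10a, also raised with both, and of a further start of Rpl3l are not shown. Capitals mark a match to one of the motifs described further on. The windows are chr17:24727726-24727825 (plus strand) for Rpl3l, chr3:28805408-28805507 (plus) for Rpl22l1, chr10:23787210-23787309 (minus) for Rps12 and chr7:99483710-99483809 (minus) for Rps3.
Rpl3l: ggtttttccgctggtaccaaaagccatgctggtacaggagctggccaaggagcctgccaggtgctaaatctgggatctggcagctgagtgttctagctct
Rpl22l1: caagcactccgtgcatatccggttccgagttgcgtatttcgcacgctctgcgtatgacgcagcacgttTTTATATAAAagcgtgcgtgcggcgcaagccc
Rps12: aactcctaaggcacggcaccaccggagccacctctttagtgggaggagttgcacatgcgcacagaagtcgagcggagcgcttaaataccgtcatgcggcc
Rps3: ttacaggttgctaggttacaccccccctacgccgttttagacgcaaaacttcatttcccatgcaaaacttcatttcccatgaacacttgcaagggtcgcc

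The normalized counts of a library summed to between 2745748 and 2911891, which are not numbers of reads, so that the depth behind a value is unknown. Within conditions, the replicate number held 1.7% of the variance of the 13184 tested genes, against 25% without an effect of the number. If variation between replicate numbers had been taken out of the deposited values, which was not tested, p-values from a fit without the number as a block would be too small. Markers of cardiomyocytes were high in every library, and those of fibroblasts, endothelial cells, leukocytes and mural cells were also present, with none of their 28 listed genes at 0 in any library. With hlOSM, 8 of 10 cardiomyocyte markers were lowered and their summed normalized count was 35598 to 38102, against 49237 to 51215 in PBS, 42764 to 44693 with mLIF and 34764 to 39002 with mOSM. With the same protein, 6 of 7 endothelial markers were raised and their sum was 1363 to 1464, against 1089 to 1147 in PBS, while 5 of 6 mural markers were lowered (535 to 549, against 757 to 923). Of the fibroblast markers 3 of 8 were raised and 5 lowered (2307 to 2540, against 2296 to 2526), and of the 6 leukocyte markers tested 1 was raised and 1 lowered (326 to 397, against 308 to 333). In such bulk RNA, fewer cells of a type and less RNA per cell cannot be told apart, and the part of these shifts in the results on ribosomal protein genes was not tested.

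Together, the 79 genes held well under 1% of a library's normalized counts. Their share was 0.430% ± 0.0065 (SD, n = 3) in PBS, 0.440% ± 0.0133 for mLIF, 0.4575% ± 0.0272 for mOSM and 0.469% ± 0.0089 for hlOSM. The 3 hlOSM libraries (0.463% to 0.479%) lay above all PBS libraries (0.426% to 0.438%), while the mOSM libraries spread from 0.426% to 0.477% and overlapped with PBS. The lowest sum over the genes, 11789, and the highest, 13883, were both found in mOSM libraries.

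Per kilobase of exon, the median level of the 79 genes over all libraries was 74.1, compared with 24.0 for the tested genes as a whole. Rplp1 (385 per kb), Rpl4 (337 per kb) and Rplp0 (298 per kb) were highest. Rplp0 and Rplp1 encode the stalk proteins that recruit elongation factors, and Rpl4 encodes a protein that lines the exit tunnel. Rps10 (5.16 per kb), Rps28 (13.6 per kb) and Rpl22l1 (18.6 per kb) were lowest. Rps10 ranked at the 14.0th percentile and Rplp1 at the 99.7th percentile of the 13177 tested genes with a length.

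The authors left out reads that aligned to several regions, which bears on these levels. In the annotated transcripts of the members, a median of 43.6% of 75-base windows also occurred in a transcript of another gene, with 34 of 79 members above 50% and a range from 0% to 98.5%. The extreme was Rps27, in which 4 of 271 windows were found in no other gene. Levels of different members can therefore be ordered only with reserve, while a comparison of conditions within a gene uses the same countable positions throughout. The plot of level against shared sequence gives both measures for each gene.

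**Figure D1:**
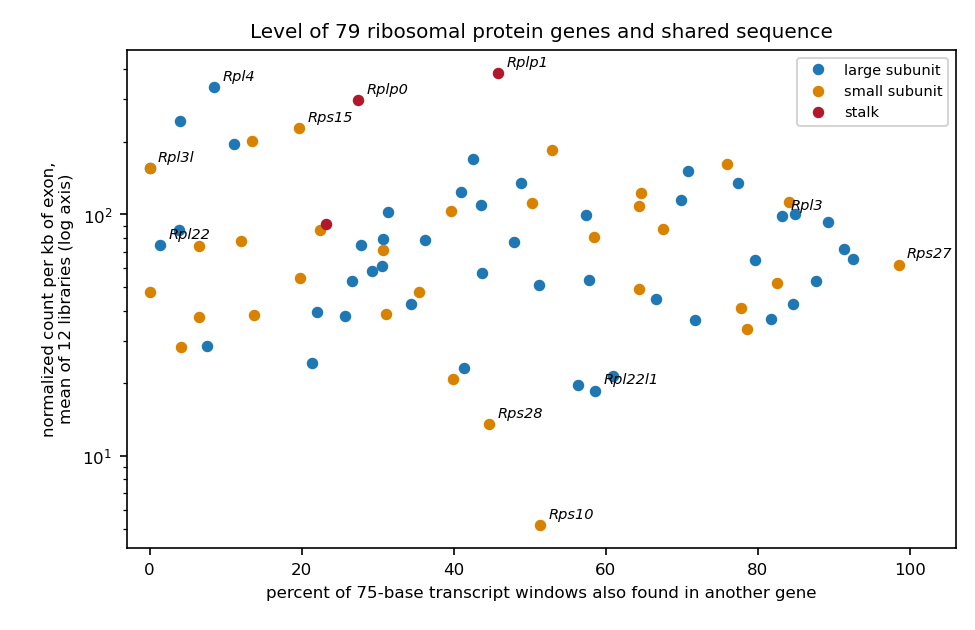
Mean normalized count per kb of exon over 12 libraries (log axis) against the percent of 75-base transcript windows that also occur in another gene, for 79 genes coloured by subunit. Rplp1, Rpl4 and Rplp0 are highest, Rps10 at 5.16 per kb is lowest, and Rps27 has 98.5% of its windows shared while Rpl3l has none.

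The first question was how many of these genes changed with each protein. With mLIF, 1 of 79 was raised and 1 lowered, where 5.47% of all tested genes were raised and 4.44% lowered (limma, adjusted p under 0.05). With mOSM, 8 were raised (10.1%) and 1 lowered (1.27%), where the background was 15.4% raised and 15.8% lowered. With hlOSM, 19 were raised (24.1%) and 1 lowered (1.27%), where the background was 18.2% raised and 19.8% lowered. The single gene lowered was Rpl3l in each case. The share of members lowered was below the background with each protein, and the share raised was above it with hlOSM alone. The comparisons share their PBS libraries, and neither share was tested against the background. When the replicate number was a block, 13 members (16.5%) were raised with hlOSM, where 14.7% of tested genes were.

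The size of the changes was small. Members had a median log2 fold change of 0.03 for mLIF, 0.09 for mOSM and 0.14 for hlOSM, beside medians of 0.00, -0.00 and -0.01 over all tested genes. In hlOSM against PBS 66 of 79 members lay above 0, the middle 50% ran from 0.03 to 0.25, and the range was -0.26 to 0.68. For the tested genes as a whole, the middle 50% in this comparison ran from -0.22 to 0.22. The standard error of a member's log2 fold change had a median of 0.09 and ran from 0.06 to 0.26. The smallest change called with hlOSM was 0.17, in Rps9.

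These counts depended on single libraries. Without PBS replicate 2, PBS replicate 3 or hlOSM replicate 3, the number raised with hlOSM was 11, 10 and 11, or 13.9%, 12.7% and 13.9% of members beside 15.2%, 16.1% and 13.7% of tested genes. The excess over the background with hlOSM is therefore not stable to leaving out a library. For mOSM the number raised was 4 without PBS replicate 3, 13 without mOSM replicate 1, 5 without mOSM replicate 2 and 4 without mOSM replicate 3, and 4 also when the replicate number was a block. Without PBS replicate 3 and with the block, 5.06% of members were raised, beside 13.2% and 12.5% of tested genes. For the fits without an mOSM library the share of tested genes is not reported here. The counts of those fits show a spread and are not set against the background.

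**Figure D2:**
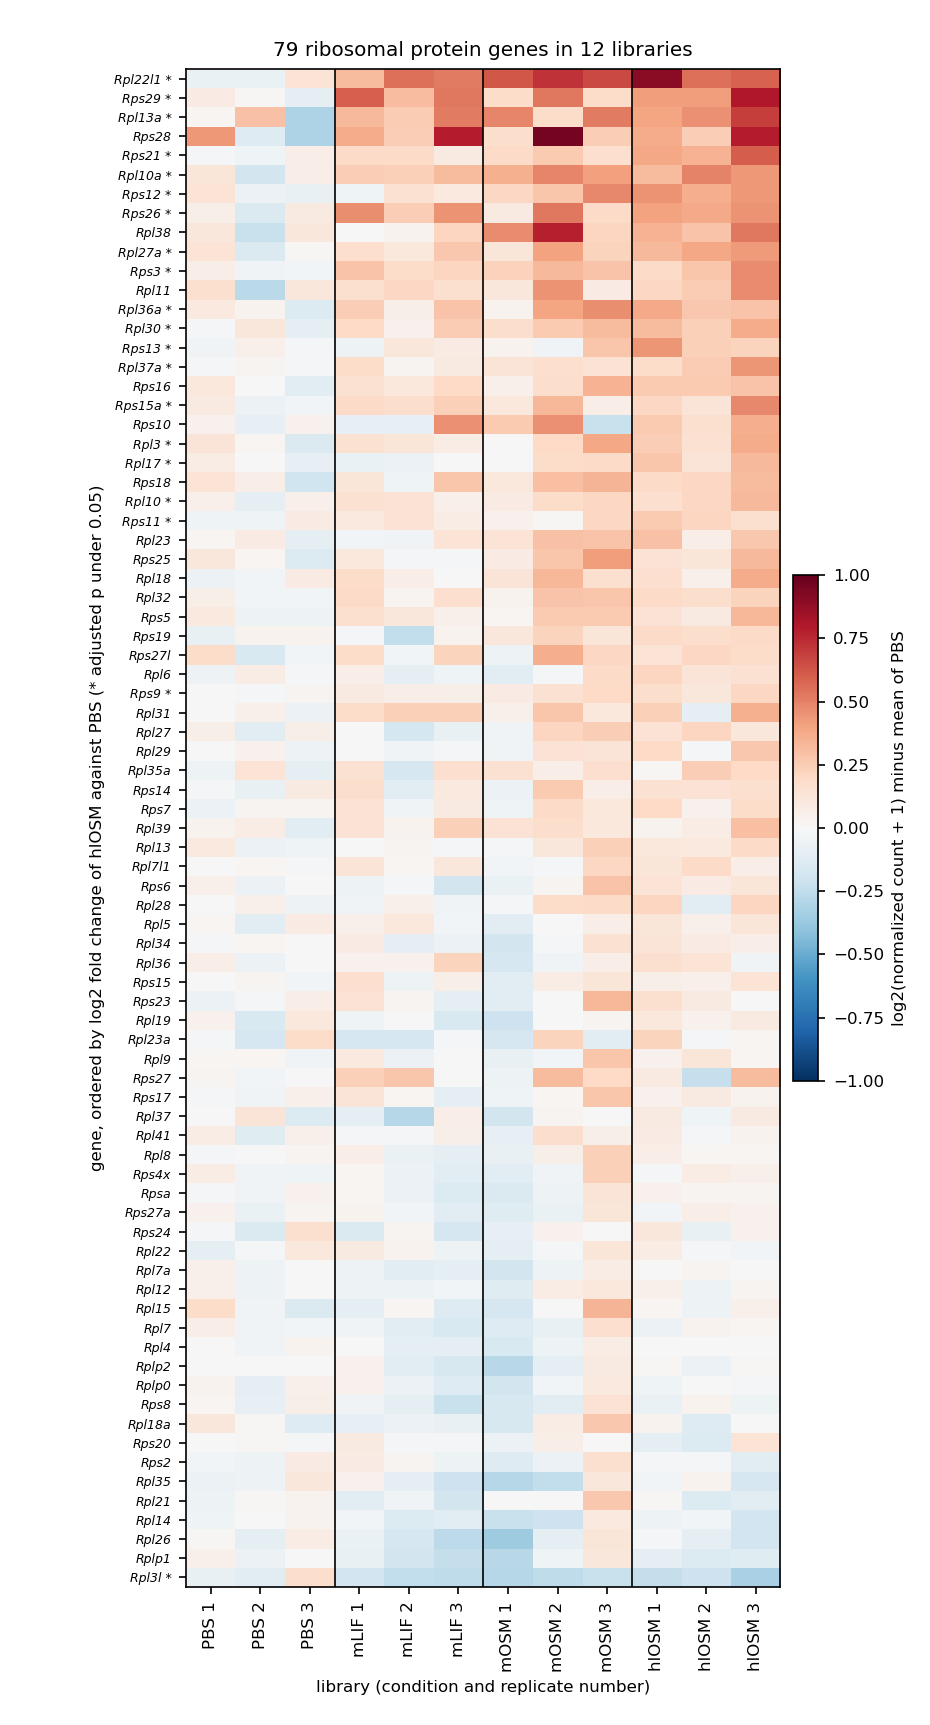
The log2(normalized count + 1) of 79 genes (rows) in 12 libraries (columns) as the difference from the mean of the 3 PBS libraries, with genes ordered by the log2 fold change of hlOSM against PBS and an asterisk for an adjusted p under 0.05 in that comparison. Rpl22l1 at the top is high in all 9 cytokine libraries, and Rpl3l at the bottom is low in all 9.

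Members with lower counts had larger log2 fold changes. Among the 24 members with a mean normalized count under 100, the median log2 fold change of hlOSM against PBS was 0.27 and 8 were raised. In the 33 members between 100 and 200 the median was 0.12 and 7 were raised, and in the 22 members of 200 or more it was 0.03 with 4 raised and 1 lowered. The same classes of all tested genes had medians of 0.00, 0.03 and -0.03, with 16.1%, 22.2% and 19.0% raised. Across the 79 genes the log2 fold change and the log2 mean normalized count had a Pearson's r of -0.57 and a Spearman's rho of -0.56 with hlOSM. The genes share libraries and are not independent replicates, so that this is a description. With the share of windows common to other genes, r was 0.10, and the median was 0.15 in the 34 members with over 50% shared (9 raised) and 0.13 in the other 45 (10 raised).

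**Figure D3:**
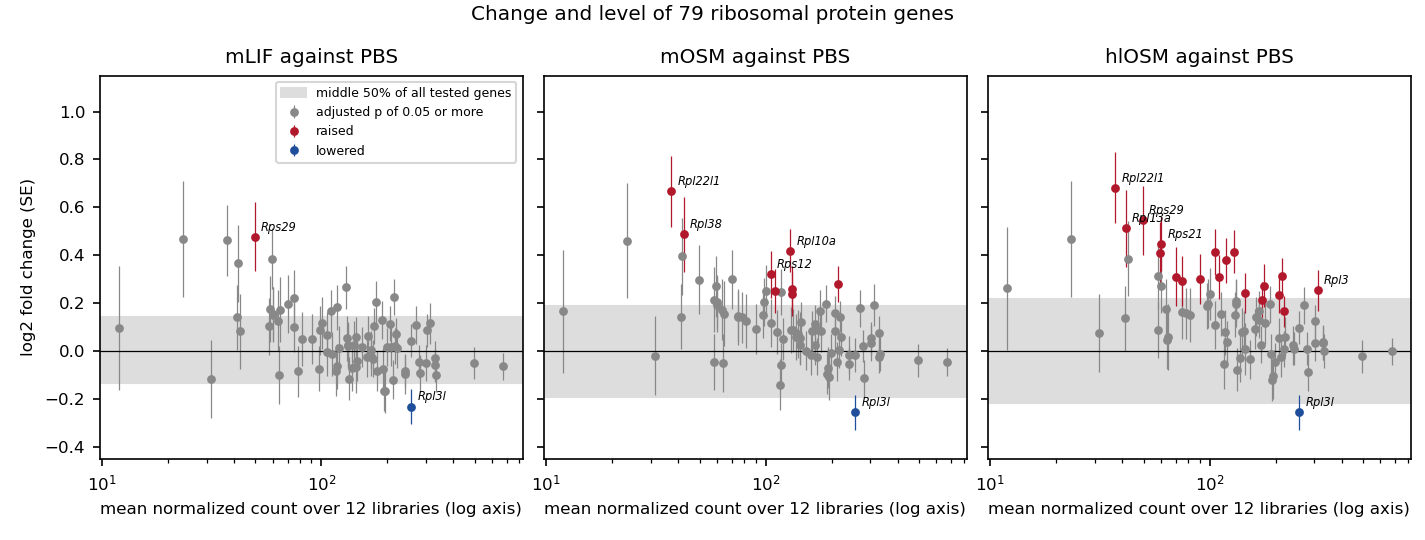
Log2 fold change with its SE against the mean normalized count over 12 libraries (log axis) for 79 genes in each cytokine against PBS, with raised genes in red, lowered genes in blue and the middle 50% of all tested genes as a grey band. The largest called rise of each panel, Rps29 with mLIF and Rpl22l1 with mOSM and hlOSM, is in a gene with a mean under 100, and Rpl3l is the one lowered gene.

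Rpl3l was lowered with each cytokine, while Rpl3 was raised past the threshold with hlOSM alone. The proteins of Rpl3 and Rpl3l occupy the same place near the peptidyl transferase centre of the large subunit. Rpl3l (chr17:24727820-24736143, 10 coding exons) had normalized counts of 276, 270 and 329 in PBS. They were 254, 245 and 243 in the mLIF libraries, 238, 243 and 249 in the mOSM libraries and 246, 252 and 232 in the hlOSM libraries. All 9 cytokine libraries lay below the lowest PBS library, and the PBS libraries spread more widely than the others. Its log2 fold change against PBS was -0.23 (SE 0.07, adjusted p = 0.0465) with mLIF, -0.25 (SE 0.07, adjusted p = 0.00998) with mOSM and -0.26 (SE 0.07, adjusted p = 0.00817) with hlOSM, or about 0.84 of the PBS level with the last. The 10 cardiomyocyte markers had median log2 fold changes of -0.21, -0.28 and -0.34 in the same comparisons. The part of their fall in that of Rpl3l was not tested.

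Rpl3 (chr15:80077791-80091868) had normalized counts of 307, 285 and 254 in PBS, 313, 306 and 296 for mLIF, 280, 323 and 367 for mOSM and 333, 312 and 363 for hlOSM. Only the hlOSM libraries were all above PBS, and the change passed the threshold there (log2 fold change 0.25, SE 0.09, adjusted p = 0.024). With mOSM it was 0.19 (SE 0.09, adjusted p = 0.0947) and with mLIF 0.12 (SE 0.09, adjusted p = 0.416).

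The log2 ratio of Rpl3l to Rpl3 within a library does not depend on a scaling factor common to all genes of that library. It was 0.05 ± 0.28 (SD, n = 3) in PBS, -0.30 ± 0.02 for mLIF, -0.40 ± 0.16 for mOSM and -0.46 ± 0.17 for hlOSM. The 3 PBS libraries were the highest of the 12. Over the 15400 arrangements of the libraries into 4 conditions, a one-sided exact permutation test gave p = 0.0087. In a comparison of 3 libraries against 3, the exact permutation p was 0.1 for each protein against PBS, the smallest that such a comparison allows, and between 0.2 and 0.7 among the proteins.

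PBS replicate 3 carried much of this difference, with the highest Rpl3l and the lowest Rpl3 of the PBS libraries. Without it, the ratio still differed by -0.35 between hlOSM and PBS, but the exact permutation p was 0.0958 and Rpl3l passed the threshold with none of the 3 proteins (adjusted p = 0.275, 0.0956 and 0.0792 with mLIF, mOSM and hlOSM). The same library was the highest of the 3 PBS libraries for 9 of 10 cardiomyocyte markers, whose sum was 51215 there and 49621 and 49237 in the others, and for 5 of 6 mural markers (923, against 757 and 804). It was the highest for 3 of 8 fibroblast, 2 of 7 endothelial and 4 of 7 leukocyte markers, for 25 of 79 ribosomal protein genes and for 46.8% of all tested genes. The part of these differences in the Rpl3l call was not tested. The call of Rpl3l with mLIF was also lost without a filter on low values, when the replicate number was a block (adjusted p = 0.0991), and without any one of 3 mLIF libraries, mOSM replicate 1, hlOSM replicate 1 or hlOSM replicate 2. The call of Rpl3 with hlOSM was lost without PBS replicate 3 or hlOSM replicate 3, with an adjusted p of at most 0.135.

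**Figure D4:**
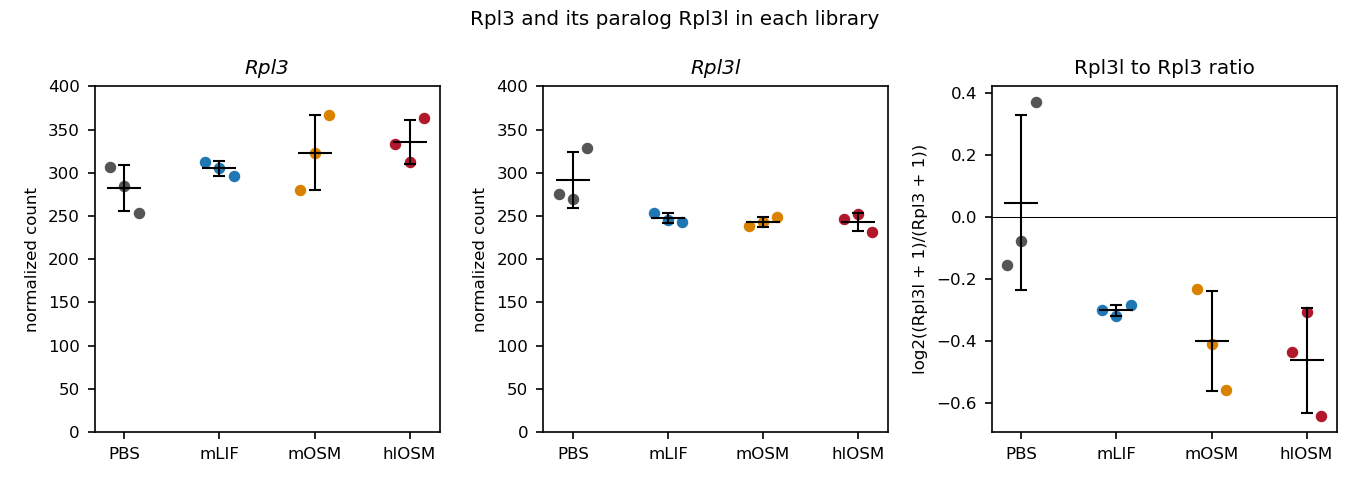
Normalized counts of Rpl3 and Rpl3l and their log2 ratio in each of 12 libraries, with points for libraries and bars for the mean and SD of 3. Rpl3l is lower in all 9 cytokine libraries than in PBS, and the PBS points of the ratio are the 3 highest but spread most, up to the one of PBS replicate 3.

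The order of the 2 genes cannot be read from these values. Per kb of exon, Rpl3l was higher than Rpl3 in PBS (178 and 88.8). However, 83.2% of the 75-base windows of Rpl3 also occurred in 8 other genes, and those of Rpl3l in none. Per kb of windows found in no other gene, the order was the reverse, at 224 for Rpl3l and 1318 for Rpl3.

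Among the remaining paralogs, Rpl22l1 rose while Rpl22 stayed level. Rpl22l1 had normalized counts of 25, 25 and 29 in PBS, 33, 39 and 38 for mLIF, 41, 44 and 42 for mOSM and 50, 39 and 40 for hlOSM, so that all cytokine libraries lay above PBS. Its log2 fold change was 0.67 (SE 0.15, adjusted p = 0.00142) with mOSM and 0.68 (SE 0.15, adjusted p = 0.000941) with hlOSM, the largest rise of any member in both, and it kept the call in each of the 12 fits that left out 1 library. With mLIF it was 0.46 (SE 0.15, adjusted p = 0.0504), just outside the threshold. Rpl22 had means between 216 and 219 in the 4 conditions and log2 fold changes of 0.01 to 0.02 (SE 0.07). As a share of the normalized counts of the pair, Rpl22l1 was 10.9% ± 0.317 (SD, n = 3) in PBS, 14.35% ± 1.53 for mLIF, 16.4% ± 1.05 for mOSM and 16.5% ± 1.39 for hlOSM. This share does not give the order of the 2 genes. Per kb of exon, Rpl22l1 was lower than Rpl22 in PBS (13.2 and 74.2). Per kb of windows found in no other gene it was higher (133 and 111).

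The pairs of Rpl7 with Rpl7l1 and of Rps27 with Rps27l did not part in this way. Rpl7l1, a paralog of Rpl7, had means of 288 ± 3.06 (SD, n = 3) in PBS and 314 ± 13.5 with hlOSM (log2 fold change 0.13, SE 0.07, adjusted p = 0.161), and Rpl7 had 340 in both. Rps27l, a paralog of Rps27 known as a p53 target, had a log2 fold change of 0.17 (SE 0.13, adjusted p = 0.296) with hlOSM, and Rps27 had 0.06 (SE 0.14). Paralogs of Rpl36a, Rpl39, Rps4x and Rpl10 were not members, so that these pairs were not compared. Rpl36a was raised with hlOSM (log2 fold change 0.31, SE 0.12, adjusted p = 0.0496), while Rpl39 was at 0.14 (SE 0.14), Rps4x at 0.04 (SE 0.08), and Rpl10 was raised by 0.23 (SE 0.07, adjusted p = 0.0143). Rps4l, the paralog of Rps4x, is annotated as a pseudogene and was raised with mOSM and hlOSM, as described further on.

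Members of both subunits were raised. With hlOSM, 9 of 31 small-subunit members were raised and none lowered, with a median log2 fold change of 0.17, where 18.2% of all tested genes were raised and 19.8% lowered. In the large subunit without its stalk 10 of 45 were raised and 1 lowered, with a median of 0.13. The difference between the subunits was not tested.

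Rps29 encodes a zinc-binding protein of the 40S head and was the one member raised with mLIF. Its normalized counts were 41, 39 and 36 in PBS, 59, 48 and 56 for mLIF, 44, 56 and 44 for mOSM and 52, 52 and 68 for hlOSM. Every cytokine library exceeded every PBS library. The log2 fold change was 0.48 (SE 0.14, adjusted p = 0.0373) with mLIF, 0.30 (SE 0.14, adjusted p = 0.123) with mOSM and 0.55 (SE 0.14, adjusted p = 0.00454) with hlOSM. Its call with mLIF was lost without a filter on low values, after quantile rescaling, when the replicate number was a block (adjusted p = 0.099), and without PBS replicate 2, PBS replicate 3, mLIF replicate 1 or mLIF replicate 3, with an adjusted p of at most 0.137. With hlOSM the call held in each of the 12 fits that left out 1 library.

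Rps12, a small-subunit protein of the beak region, was level with mLIF and higher with both OSM forms. It had normalized counts of 100, 87 and 86 in PBS, 88, 101 and 97 for mLIF, 105, 110 and 127 for mOSM and 124, 117 and 123 for hlOSM. Here mLIF overlapped with PBS, and both OSM forms lay above it. Log2 fold changes were 0.07 (SE 0.10, adjusted p = 0.71), 0.32 (SE 0.10, adjusted p = 0.0151) and 0.41 (SE 0.10, adjusted p = 0.00192). The call with mOSM was lost without PBS replicate 2, PBS replicate 3 or mOSM replicate 3, with an adjusted p of at most 0.0795.

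Rps21 had normalized counts of 51, 50 and 54 in PBS, 59, 59 and 55 for mLIF, 59, 62 and 58 for mOSM and 68, 66 and 79 for hlOSM. The groups did not overlap with PBS for any protein, and the hlOSM libraries also lay above those of mLIF and mOSM. The log2 fold change passed the threshold with hlOSM (0.45, SE 0.11, adjusted p = 0.00337), and was 0.16 (SE 0.11) with mLIF and 0.20 (SE 0.11) with mOSM. Rps3, which forms part of the mRNA entry site, was raised with mOSM (0.28, SE 0.07, adjusted p = 0.0063) and hlOSM (0.31, SE 0.07, adjusted p = 0.00211), with means of 185 ± 7.23 (SD, n = 3) in PBS, 224 ± 7.02 with mOSM and 230 ± 23.2 with hlOSM. All 9 cytokine libraries (210 to 256) lay above PBS (180 to 193), and none of its 75-base windows occurred in another gene.

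In the large subunit, Rpl10a and Rpl38 were among the largest rises with mOSM. Rpl10a, which encodes the L1 stalk protein uL1, had normalized counts of 115, 93 and 111 in PBS, 126, 125 and 132 for mLIF, 136, 149 and 141 for mOSM and 132, 150 and 143 for hlOSM. All cytokine libraries lay above PBS, and mLIF and hlOSM met at 132. Log2 fold changes were 0.27 (SE 0.09, adjusted p = 0.062), 0.42 (SE 0.09, adjusted p = 0.00108) and 0.41 (SE 0.09, adjusted p = 0.000941). The call with mOSM held in each of the 12 fits that left out 1 library.

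Rpl38, a small large-subunit protein known for a patterning phenotype in mice, had normalized counts of 38, 30 and 38 in PBS, 35, 36 and 41 for mLIF, 49, 61 and 41 for mOSM and 45, 43 and 51 for hlOSM. The libraries of mOSM and of hlOSM lay above those of PBS. The log2 fold change was 0.49 (SE 0.16, adjusted p = 0.0203) with mOSM, where the libraries spread most, and 0.39 (SE 0.16, adjusted p = 0.056) with hlOSM. The mOSM call was lost without PBS replicate 2 or mOSM replicate 2 (adjusted p of at most 0.143) and when the replicate number was a block (adjusted p = 0.0528).

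Rpl13a, whose protein is also known outside the ribosome as a part of an interferon-induced silencing complex, had normalized counts of 33, 40 and 26 in PBS, 41, 39 and 47 for mLIF, 46, 37 and 47 for mOSM and 43, 45 and 53 for hlOSM. The hlOSM libraries lay above PBS, and those of mLIF and mOSM overlapped with it. It was raised with hlOSM (0.51, SE 0.16, adjusted p = 0.0158), but not without PBS replicate 3 or hlOSM replicate 3, with an adjusted p of at most 0.106. The gene holds 4 snoRNA genes in its introns, and 35.4% of its exonic bases are overlapped by another gene on the same strand, where reads are not counted if they fall on several genes.

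**Figure D5:**
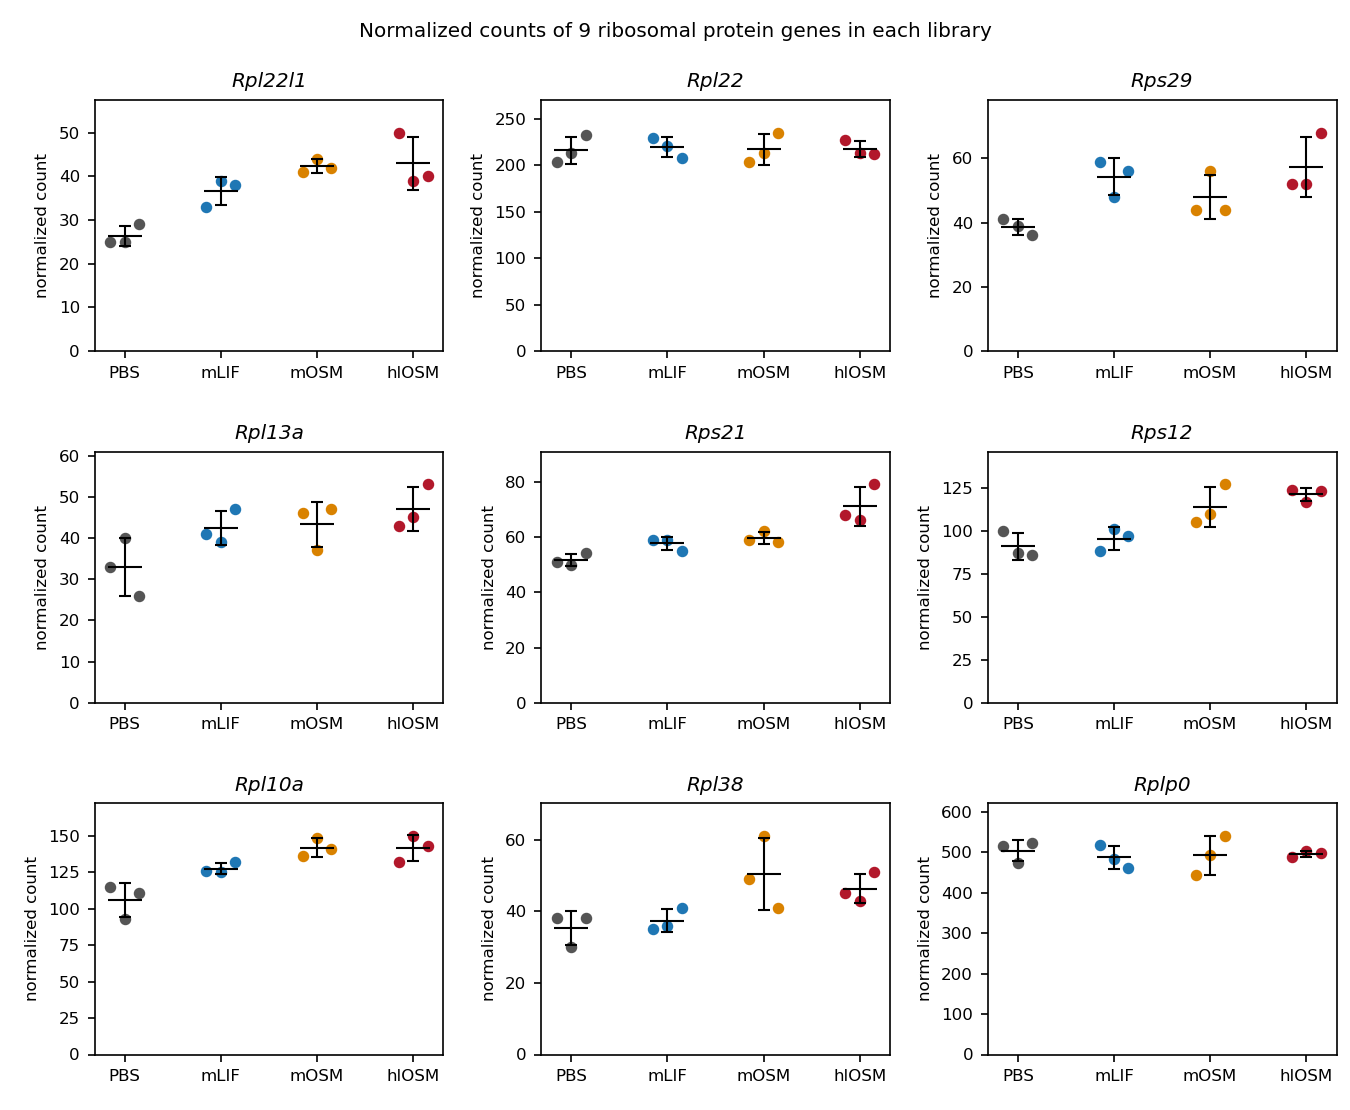
Normalized counts of 9 genes in each of 12 libraries, with points for libraries and bars for the mean and SD of 3, each axis starting at 0. Rpl22l1 and Rpl10a are higher in every cytokine library than in PBS, Rps21 is highest in the hlOSM libraries, and Rpl22 and Rplp0 overlap in all conditions.

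None of the stalk genes was called. Rplp0 had means of 504 ± 26.3 (SD, n = 3) in PBS, 487 ± 29.1 with mLIF, 492 ± 48.5 with mOSM and 496 ± 7.55 with hlOSM. For Rplp1 the corresponding means were 204 ± 7.55, 182 ± 10.8, 196 ± 26.6 and 187 ± 2.52, and for Rplp2 they were 196 ± 0.577, 186 ± 14.0, 184 ± 23.5 and 194 ± 5.20. All 9 log2 fold changes against PBS lay below 0, from -0.16 to -0.01, and the lowest adjusted p was 0.228, but without mOSM replicate 1 the changes of Rplp0 and Rplp1 with mOSM were both 0.04.

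Rpsa, the small-subunit protein that is also known as a laminin receptor, and Rps27a, which is made as a fusion with ubiquitin, were level. Their log2 fold changes were -0.06 to 0.03 (SE 0.07) and -0.03 to 0.03 (SE 0.08). Rps10 and Rps28, the members with the lowest levels per kb, had means of 10.7 ± 0.577 and 18.0 ± 5.29 (SD, n = 3) in PBS and 13 ± 1 and 25.0 ± 5.29 with hlOSM. Their log2 fold changes were 0.26 (SE 0.26, adjusted p = 0.45) and 0.47 (SE 0.24, adjusted p = 0.131). Rpl4, the highest large-subunit member, had 688 ± 16.6 in PBS and 688 ± 3.06 with hlOSM.

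Direct comparisons asked whether the proteins differed from one another. Between mOSM and mLIF no member was called with limma, where 6.05% of tested genes were raised and 5.76% lowered. The smallest p values were those of Rpl38 (log2 difference 0.41, SE 0.16, adjusted p = 0.101) and Rps12 (0.25, SE 0.10, adjusted p = 0.102). Between hlOSM and mLIF 2 members were raised and none lowered, where 7.42% of tested genes were raised and 9.22% lowered. These were Rps12 (0.35, SE 0.10, adjusted p = 0.0165) and Rpl17 (0.28, SE 0.08, adjusted p = 0.0216), the latter with normalized counts of 130, 131 and 137 with mLIF and 166, 149 and 171 with hlOSM. In both genes the libraries did not overlap.

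The call of Rps12 was lost without mLIF replicate 1 or hlOSM replicate 1 (adjusted p of at most 0.0932). That of Rpl17 was lost without mLIF replicate 1, mLIF replicate 2, hlOSM replicate 1 or hlOSM replicate 3 (at most 0.0833) and when the replicate number was a block (adjusted p = 0.0592).

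Between hlOSM and mOSM no member was called with limma, where 0% of tested genes were raised and 0.106% lowered. Rps21 (log2 difference 0.24, SE 0.11, adjusted p = 0.659) and Rps13 (0.21, SE 0.10, adjusted p = 0.681) had the smallest p values. The median log2 difference of the members was 0.03, and for Rpl3l it was -0.00 (SE 0.07).

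The members share features that the rule did not use. They lie on 19 chromosomes, with 14 of them on chromosome 7. Genes of snoRNAs lie inside 29 of them, 56 such genes in all, and coding lengths ran from 75 to 1257 bases with a median of 453. Shorter members tended to have larger changes with hlOSM (Pearson's r = -0.32, Spearman's rho = -0.27 across 79 genes, a description).

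RefSeq promoter windows, from 250 bases before to 50 bases after a start, were found for 59 of 79 members, 71 windows in all, and compared with all 32851 windows. The ETS or GABP motif CCGGAAG occurred in 35.2% of the members' windows and in 8.86% of all, the YY1 motif AAGATGGC in 11.3% and 2.75%, and the SP1 motif GGGCGG in 60.6% and 35.7%, each on either strand. A pyrimidine run CTTTCC on the transcript strand occurred in 38.0% and 14.1%. The E-box CACGTG, bound by Myc among others, occurred in 11.3% and 7.15%, the TATA motif TATAAA in 9.86% and 13.6%, and the STAT motif TTCNNNGAA in 4.22% and 8.30%. In the 100 bases shown above, Rpl22l1 has a TATA match and Rpl3l, Rps12 and Rps3 have no match to any of these. Windows of a gene with several starts can overlap and were counted separately, as with Rpl35a, whose windows all hold the YY1 motif. A match is a string of letters and no measured binding.

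Genes of ribosomal proteins that the naming rule leaves out were also looked at. Rps3a1, a small-subunit gene, and Fau, which encodes a ribosomal protein fused to a ubiquitin-like part, had log2 fold changes of 0.07 (SE 0.08) and -0.09 (SE 0.10) with hlOSM, and neither was called with any protein. Elongation factors held a pair of paralogs with opposite calls. Eef1a1, the general form, was raised with hlOSM (0.25, SE 0.08, adjusted p = 0.0143), with means of 488 ± 25.7 (SD, n = 3) in PBS and 579 ± 32.1. Eef1a2, the form of muscle and neurons, was lowered with mOSM (-0.16, SE 0.06, adjusted p = 0.0391) and hlOSM (-0.17, SE 0.06, adjusted p = 0.0308), with means of 1002 ± 52.1 in PBS and 891 ± 7.57 with hlOSM. Eef2 was level (-0.00, SE 0.06). Without PBS replicate 3 none of these calls held (adjusted p = 0.0663 for Eef1a1, and 0.168 and 0.137 for Eef1a2). That of Eef1a1 was also lost without hlOSM replicate 3. Of 21 alternative fits, the call of Eef1a2 held in 12 with mOSM and in 15 with hlOSM. The mOSM call was also lost when the replicate number was a block (adjusted p = 0.0609). Dropping the filter, quantile rescaling, using only the libraries compared, or leaving out PBS replicate 1, mLIF replicate 2, mOSM replicate 1 or mOSM replicate 2 removed it too. The hlOSM call of Eef1a2 was also lost after quantile rescaling and without PBS replicate 1 or any single hlOSM library.

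Of the 14 elongation factors tested, 4 were raised and 1 lowered with hlOSM, beside 18.2% and 19.8% of all tested genes. Eif5a, which relieves stalled ribosomes, showed the largest rise among those called (0.44, SE 0.08, adjusted p = 0.000159). Of 38 initiation factors, 1 was raised with mLIF, 6 with mOSM, and 7 with hlOSM, which also lowered 3, and the shares raised were near those of all tested genes with mOSM and hlOSM (15.4% and 18.2%). Eif6, which binds the large subunit and keeps it from joining the small one, was the initiation factor raised with mLIF. Its normalized counts were 113, 113 and 115 in PBS, 146, 142 and 156 for mLIF, 174, 172 and 166 for mOSM and 168, 173 and 182 for hlOSM, without overlap between PBS and any protein. The log2 fold changes were 0.38, 0.58 and 0.61 (SE 0.07, adjusted p = 0.00273, 2.7e-06 and 1.03e-06). Of the falls called in this list, the largest was that of Eif5b with hlOSM (-0.22, SE 0.08, adjusted p = 0.0258), which was lost without PBS replicate 2, PBS replicate 3 or hlOSM replicate 3 and after quantile rescaling (adjusted p of at most 0.145).

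Among 20 regulators of mTORC1 and of TOP mRNAs, 1 was raised and 3 were lowered with hlOSM, where the background was 18.2% and 19.8%. With mOSM 3 were raised and 2 lowered, where it was 15.4% and 15.8%. Ddit4, an inhibitor of mTORC1 that is induced by stress, rose by 1.08 (SE 0.13, adjusted p = 7.83e-07) with mOSM and by 1.01 (SE 0.13, adjusted p = 1.42e-06) with hlOSM. Sesn1, a leucine sensor that also restrains mTORC1, was lowered with all 3 proteins (-0.39, -0.71 and -0.93, SE 0.11), with PBS values of 245, 225 and 334. Without PBS replicate 3 its change was -0.22 with mLIF (adjusted p = 0.157), -0.54 with mOSM and -0.76 with hlOSM, and the last 2 kept their calls. Eif4ebp1 was raised with mOSM (0.22, SE 0.07, adjusted p = 0.0138), but not without PBS replicate 3 or mOSM replicate 2 (at most 0.0604), while Mtor (-0.14, SE 0.05, adjusted p = 0.0567), Larp1 (0.02, SE 0.05) and Rps6kb1 (0.07, SE 0.07) did not pass the threshold with hlOSM. Of the 8 chaperones that escort single ribosomal proteins, 2 were raised with mOSM and 1 with hlOSM, beside backgrounds of 15.4% and 18.2%. Grwd1, the chaperone of the Rpl3 protein, was raised with both (0.33, SE 0.07, adjusted p = 0.00123, and 0.28, SE 0.07, adjusted p = 0.00392).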

How the data were processed

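Total RNA of 12 cardiomyocyte libraries was sequenced by the authors, trimmed, aligned to mm10 with STAR 2.7.7a and counted per gene with featureCounts 1.6.5, leaving out reads that lay on several genes or aligned to several regions. The values deposited by the authors are normalized counts rounded to whole numbers, treated here as a score. The normalization is not given in the sources used here. Use of strand in counting is not stated. The 13184 genes that reached 10 in 3 or more libraries were tested by limma 3.58.1 (R 4.3.3), whose moderated statistic was given a trend in mean level, on log2(normalized count + 1). All 12 libraries and 4 conditions entered 1 fit. Genes were called where the two-sided p, adjusted by Benjamini-Hochberg over those genes, was under 0.05. The ratio of Rpl3l to Rpl3 was tested by exact permutation. Fold changes on this scale understate changes of low genes.

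Exon length, overlaps and 75-base windows came from GENCODE M21 (mm10), where all 79 genes have the table's coordinates, and promoters from RefSeq. Genes described singly were Rpl3 and Rpl3l, paralogs, stalk genes, Rpsa, Rps27a, the 4 largest rises and falls past the threshold per protein, the 3 highest and 3 lowest levels per kb and the 2 smallest p values per direct comparison. Rps3 and Rps9 were added after their values were seen. Members and lists were chosen with earlier results of these data known. The tests were tested on simulated data. As alternatives, the pseudocount was 0.1 or 5, the filter was dropped or set to 50, values were rescaled by trimmed means or quantiles, the variance step was made robust, only the 6 libraries of a comparison were used, the replicate number was blocked, and each library was left out. Some genes that were tested are not reported here.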

Additional observations from a re-analysis of the deposited data

How the results depend on the processing

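Replicate numbers recur across the conditions in the labels, but the deviations of same-numbered libraries from their condition means correlated between -0.406 and -0.151 in all 18 pairs, so that the numbers did not meet the rule for a pairing (over 0.1). Had variation between replicate numbers been taken out of the values, paired libraries could not meet this rule either. It therefore does not show that the libraries were unpaired. Whether the deposited values had been adjusted for the number was not tested. With the replicate number as a block, members raised numbered 0 with mLIF, 4 with mOSM, 13 with hlOSM and 1 in hlOSM against mLIF. In these comparisons 3.39%, 12.5%, 14.7% and 5.49% of tested genes were raised. No member was lowered with mLIF, where 2.56% of tested genes were. The ratio of Rpl3l to Rpl3 differed by -0.51 between hlOSM and PBS, with an exact permutation p of 0.0243 within replicate numbers. With mLIF, the number raised was 2 with a pseudocount of 0.1, a filter at 50, trimmed-mean or quantile rescaling, or only the libraries compared, and without a filter both 0 were raised and 0 lowered. Of the tested genes, 5.45%, 7.65%, 5.48%, 5.7% and 6.69% were raised with mLIF in the first 5 of these fits. Without a filter 2.71% were raised and 2.05% lowered. With mOSM the number of members raised was 5 without a filter, with quantile rescaling and with only the libraries compared. There 8.9%, 15.2% and 14.1% of tested genes were raised. Leaving out 1 library at a time gave 0 to 3 raised and 0 to 1 lowered with mLIF, 4 to 13 raised and 0 to 2 lowered with mOSM, 10 to 21 raised and 0 to 1 lowered with hlOSM, 0 to 1 raised in mOSM against mLIF and 0 to 2 raised in hlOSM against mLIF, and a difference of the ratio between -0.61 and -0.35. The cause was not tested. These ranges give the spread of the counts alone, since the shares of tested genes moved too. Without PBS replicate 3, for example, 3.26% of tested genes were raised and 1.52% lowered with mLIF. The main fit had 5.47% and 4.44%. With hlOSM the shares were 16.1% and 14.7% without that library, beside 18.2% and 19.8% in the main fit. No count or ratio reversed, and among single genes under the settings other than leaving out a library, 398 values kept their direction and side of the threshold, 7 fell outside it and 3 came inside it. Leaving out a library, 516 kept both, 28 fell outside, 5 came inside and 3 that were not called changed sign. The unknown depth limits what can be said of genes such as Rps10 and Rps28.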

Other observations

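The table also holds 88 rows of ribosomal protein pseudogenes, none of them at 0 in every library, whose normalized counts summed to between 166 and 228 in a library. Of these, 4 passed the filter on low values, and those described here were singled out after their values were seen. Rps4l, a transcribed processed pseudogene, had normalized counts of 25, 26 and 20 in PBS, 38, 26 and 44 for mLIF, 38, 43 and 36 for mOSM and 36, 44 and 46 for hlOSM. It was raised with mOSM (log2 fold change 0.70, adjusted p = 0.00495) and hlOSM (0.80, adjusted p = 0.00135), while its likely parent gene Rps4x was level. Rpl14-ps1 (-0.15, adjusted p = 0.542) and Rpsa-ps10 (0.70, adjusted p = 0.151) did not pass the threshold with hlOSM. Reads of such rows and of their parent genes can be told apart only where the sequences differ.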
